A study of Homo sapiens with 12 samples.

Results

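Interferon-stimulated genes were read from RNA sequencing of 2 human non-small-cell lung cancer cell lines, H460 and H1299, after small interfering RNA (siRNA) against NGFR, the nerve growth factor receptor. The 43 genes were taken by gene name from a deposited table of 64253 gene rows, of which 60107 lie on the primary chromosomes, and a name found on several rows was read from the primary-chromosome row with the highest total count. The question put by the design is what loss of NGFR does to gene expression in each line. Each group held 3 libraries that the labels call biological replicates: H460 with NGFR siRNA (siNGFR), H460 with control siRNA (siCont), H1299 with siNGFR and H1299 with siCont. All 12 samples were grown in DMEM with FBS, all were transfected with an siRNA, and no interferon treatment or untransfected sample was among them. The H460 libraries carry the numbers 4, 5 and 6 in the count table and the H1299 libraries 1, 2 and 3, and values are listed in that order.

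Interferons are secreted proteins that warn cells of viral infection. Type I and type III interferons signal through receptor-bound JAK kinases to a complex that contains STAT2 and IRF9, which enters the nucleus and binds a DNA element called the interferon-stimulated response element (ISRE). Type II interferon acts mainly through a palindromic element called GAS. The genes induced in this way encode sensors of double-stranded RNA, enzymes that degrade or block viral RNA, membrane proteins that stop virus entry, and the ubiquitin-like protein ISG15 with its conjugation enzymes. Many of them also keep a low level of expression in cells that were never given interferon, and tumour cell lines are known to differ in that level.

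Depth ran between 16672164 and 36116823 counts per library, and the 43 genes together took 2255 to 10907 of those counts. Genes with less than 400 bases of exon took 41.7% to 55.6% of all counts. Levels are given as CPM (counts-per-million) after TMM scaling, which sets libraries to a common trimmed mean of gene ratios. The targeted gene NGFR had 0 to 6 counts in every library, siNGFR and siCont alike, so the knockdown could not be checked in these data. The H1299 siNGFR replicate 3 stood apart: without it the number of genes of all kinds past the test in H1299 was 2201 higher and 3224 lower, against 2 and 2 with it. Its short-gene share was 50.6%, against 41.7% and 47.2% in the other H1299 siNGFR libraries. The H1299 siCont libraries held 48.7%, 53.7% and 51.5%, so replicate 3 lay within the siCont range and the other siNGFR libraries below it. Counts of calls among the 43 genes in the main fits that involve replicate 3 are given with and without it, as are the genes whose call changes. Counts from other filters, scalings and gene lists are given with it only.

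**Figure D1:**
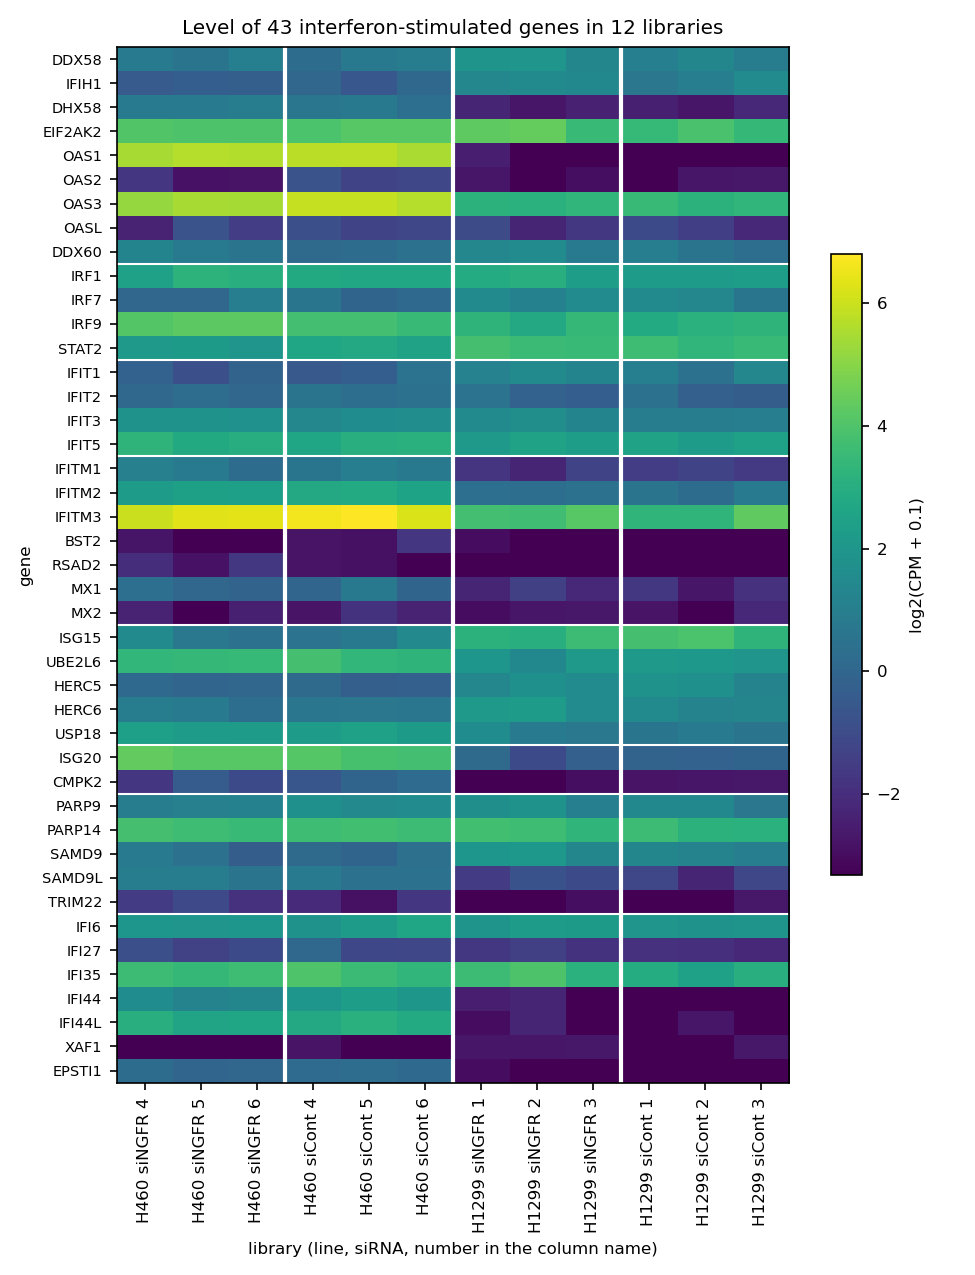
Level of each gene (rows, grouped by role) in each library (columns), as log2(CPM + 0.1). The OAS1, IFI44, IFI44L and EPSTI1 rows lie higher on the colour scale in the 6 H460 libraries and at or near its bottom in the 6 H1299 libraries, while the ISG15 row is brighter in H1299.

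The ISRE is what the sequences of these genes are known to share, and it is shown here for the genes on which the results turn. RefSeq promoter windows of 300 bases, 250 before and 50 after the transcription start on GRCh38.p14, were found for 34 of the 43 genes and searched on both strands. The pattern of GAAA, any 2 bases and GAAA was present in 21 of the 34 windows (61.8%), against 3.57% of 35116 promoter windows of all genes. The palindromic GAS pattern TTCNNNGAA was present in 10 of the 34, or 29.4%, against 7.66% of all windows. For ISG15, ISG20 and IFITM3 the RefSeq start lies inside a longer GENCODE gene. Each line below gives 30 bases of the gene strand, 5′ to 3′, with the ISRE match in capitals.
IFI44, chr1:78649761-78649790, plus strand: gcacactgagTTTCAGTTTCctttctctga
IFI44L, chr1:78620274-78620303, plus strand: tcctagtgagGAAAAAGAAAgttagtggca
OAS3, chr12:112938452-112938481, plus strand: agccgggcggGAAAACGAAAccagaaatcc
EPSTI1, chr13:42992272-42992301, minus strand: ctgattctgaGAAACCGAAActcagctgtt
IFITM3, chr11:320876-320905, minus strand: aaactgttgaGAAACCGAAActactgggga
ISG20, chr15:88638937-88638966, plus strand: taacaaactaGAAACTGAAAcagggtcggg
ISG15, chr1:1013380-1013409, plus strand: tcgggaaaggGAAACCGAAActgaagccaa
IFIT1, chr10:89392510-89392539, plus strand: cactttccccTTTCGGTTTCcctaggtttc

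IFIT1 and IFI44 carry the match on the strand opposite to the gene, and the other genes shown carry it on the gene strand. The letters shared by EPSTI1, IFITM3 and ISG15 are the same across all 10 bases of the match. IFI44L holds the same 30 bases a second time at chr1:78620365-78620394, so that its matches begin 164 and 73 bases before the start. The pattern was not found in the windows of OAS1, STAT2, UBE2L6, IFI35, HERC6 or SAMD9L. Of the genes that were higher in H460 under siCont, 12 of the 19 with a window held the pattern, as did 5 of the 7 that were lower. The row named IRF9 is among the 19. Its window, without the pattern, is that of the IRF9 gene, which starts 10047 bases inside the row that was called.

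**Figure D2:**
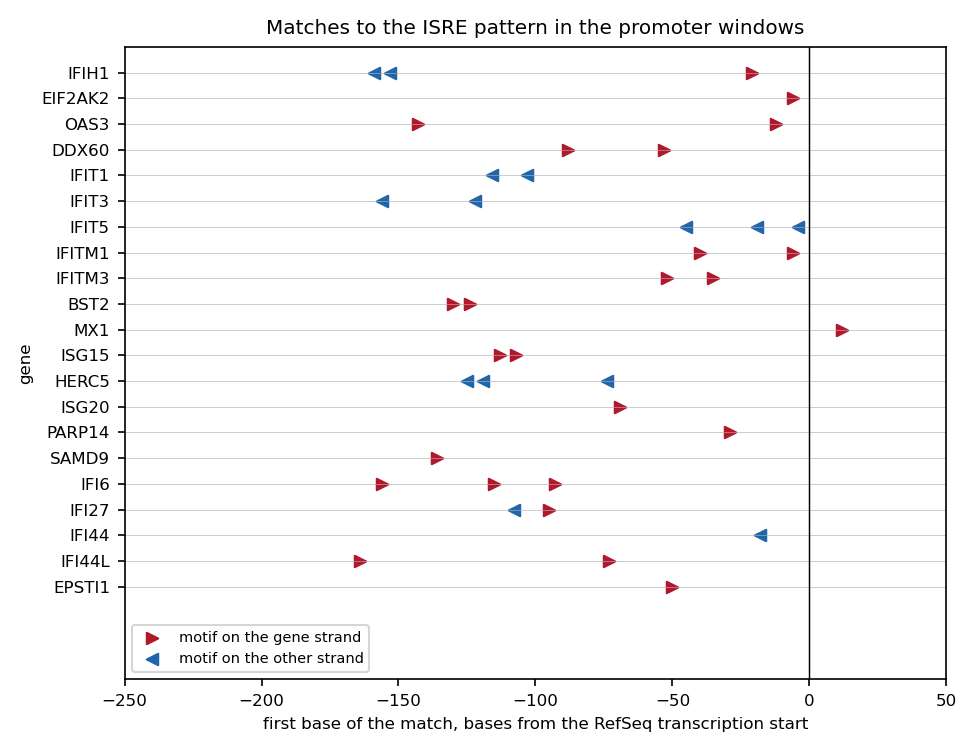
Position of each ISRE match in the promoter windows, in bases from the RefSeq transcription start, for the 21 genes with at least 1 match. Right-pointing markers stand for matches on the gene strand and left-pointing markers for the other strand. Every match but that of MX1 begins before the start site.

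H460 cells held more of this RNA than H1299 cells under either siRNA. The summed level of the 43 genes was 307 to 330 CPM in H460 siNGFR libraries and 321 to 384 CPM in H460 siCont libraries. It was 140 to 157 CPM in H1299 siNGFR libraries and 125 to 132 CPM in H1299 siCont libraries. IFITM3, OAS1 and OAS3 made up 46.7% to 58.6% of the sum in H460 and 13.7% to 22.9% in H1299. Without these 3 genes the sums lay closer, at 153 to 164, 150 to 160, 112 to 135 and 100 to 112 CPM in the same order of groups. In a bulk library, fewer cells that express a gene and less RNA per cell cannot be told apart.

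Per kilobase of annotated exon, IFITM3, a membrane protein that blocks virus entry, was the highest of the 43 in H460, at 55.6 CPM per kb under siNGFR and 70.4 under siCont. OAS1, which makes the messenger 2-5A when it binds double-stranded RNA, came next in H460 with 12.3 CPM per kb under siNGFR and 13.1 under siCont. IFI35 followed with 6.93 and 7.43 CPM per kb, OAS3 with 5.0 and 6.83, UBE2L6 with 4.88 and 5.14, and IFI6 with 4.45 and 5.52. In H1299 the leading genes were IFITM3 with 10.9 CPM per kb under siNGFR and 9.69 under siCont, and ISG15 with 10.4 and 13.6. IFI35 followed in H1299 with 7.17 and 4.13 CPM per kb and IFI6 with 4.86 and 4.26, and STAT2 led the rest with 2.03 under siNGFR. ISG15 and IFITM3 changed places between the siRNAs in H1299, where IFITM3 ran between 9.67 and 19.8 CPM over the siCont libraries. Exon length here counts every annotated exon of a gene, so that genes with many annotated bases, such as IFI44L and ISG20, rank lower on this scale than by CPM.

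NGFR knockdown left most of these genes within the spread of the replicates in H460. Of the 36 genes with enough counts to test there, 1 passed the test as higher in siNGFR and 1 as lower, or 2.78% each, against 1.81% and 2.5% of all 19837 genes tested. The median log2 change was −0.07 over the 36 genes and 0.01 over all genes tested. At an unadjusted p under 0.05 there were 3 higher and 6 lower, where all genes gave 9.42% and 9.82%. Libraries of the groups did not overlap for 5 higher and 6 lower genes, against 10% and 13.7% of all genes.

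IFI44, an interferon-induced cytoplasmic protein encoded at chr1:78649796-78664078, was the gene that fell in H460. It had 2.95, 2.21 and 2.42 CPM in siNGFR libraries, against 3.88, 4.79 and 3.96 CPM in siCont libraries. All 3 siNGFR libraries lay below all 3 siCont libraries. The log2 fold change was −0.73 (SE 0.19, adjusted p = 0.0479, edgeR quasi-likelihood test). The call was lost in 8 of 13 alternatives, among them DESeq2 (adjusted p = 0.0538), a single fit of all 12 libraries (adjusted p = 0.216) and the fits without any of siNGFR replicates 5 and 6 or siCont replicates 4, 5 and 6. Over the 13 alternatives the log2 fold change was −1.05 to −0.62 with an adjusted p of 0.00192 to 0.228. Its neighbour IFI44L, whose gene ends 3.7 kb before IFI44 begins, had 8.05, 5.98 and 6.09 CPM in siNGFR libraries and 6.69, 8.45 and 7.16 CPM in siCont libraries. The IFI44L groups overlapped (log2 fold change −0.14, SE 0.16, adjusted p = 0.696).

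The gene that was called higher in H460 was the row named IRF9, the DNA-binding partner of STAT2, but that row is not the IRF9 gene alone. The table holds 2 primary-chromosome rows of that name. The one with more counts, taken by the rule, spans chr14:24151218-24167402 and is a readthrough transcript, AL136295.5 in GENCODE, which overlaps both RNF31 and IRF9 on the same strand. It had 16.8, 19.0 and 18.9 CPM in siNGFR libraries, against 13.5, 13.6 and 11.6 CPM in siCont libraries, with no overlap (log2 fold change 0.52, SE 0.12, adjusted p = 0.0254). The call was lost in 7 of 13 alternatives, among them a single fit of all 12 libraries (adjusted p = 0.129) and raw library size (adjusted p = 0.383). It was also lost without siNGFR replicate 5 or 6 or without siCont replicate 5 or 6, and over 13 alternatives the log2 fold change was 0.18 to 0.59 with an adjusted p of 0.00711 to 0.383.

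The row of the IRF9 gene itself, chr14:24161053-24166565, had 2.65, 3.51 and 3.5 CPM in siNGFR libraries, against 2.03, 2.92 and 2.42 CPM in siCont libraries. These libraries overlapped, and the test did not pass (log2 fold change 0.40, SE 0.21, adjusted p = 0.327). RNF31, a subunit of the ubiquitin ligase complex LUBAC, also overlaps the readthrough row and had a log2 fold change of 0.35 (SE 0.12, adjusted p = 0.117). Which of these transcripts the reads of the readthrough row came from was not tested.

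Among the sensors and their effectors, OAS3 came close to the threshold in H460. OAS3 had 36.2, 44.1 and 43.3 CPM in siNGFR libraries, against 59.1, 59.3 and 50.7 CPM in siCont libraries, which did not overlap (log2 fold change −0.43, SE 0.12, adjusted p = 0.0562). It passed when genes under 400 bases of exon were left out (adjusted p = 0.0292) and when no filter on low counts was used (adjusted p = 0.018). OAS1, 5.1 kb upstream of OAS3 on chromosome 12, had 44.4, 50.6 and 49.4 CPM in siNGFR libraries and 53.3, 54.8 and 45.4 CPM in siCont libraries, which overlapped. DDX60, a helicase that helps the RNA sensors, had a log2 fold change of 0.67 (SE 0.26, adjusted p = 0.178).

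STAT2, the signalling subunit of the ISRE-binding complex, had 4.25, 4.47 and 3.80 CPM in H460 siNGFR libraries, against 6.14, 6.69 and 5.53 CPM in H460 siCont libraries. The groups did not overlap, and the log2 fold change of −0.54 (SE 0.15, adjusted p = 0.0722) missed the threshold. It passed without the short genes (adjusted p = 0.0491). IRF1 and IRF7, transcription factors that carry interferon signals further, had log2 fold changes of 0.22 (SE 0.18) and 0.23 (SE 0.35). Of the 4 IFIT genes, none passed in H460. All 4 tested genes of the membrane group had negative values, between −0.36 for IFITM2 and −0.07 for IFITM1, with none past the test. PARP9, which works with the ubiquitin ligase DTX3L, had 1.85, 2.01 and 2.07 CPM in siNGFR libraries and 3.32, 2.64 and 2.83 CPM in siCont libraries (log2 fold change −0.54, SE 0.20, adjusted p = 0.147).

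The scale of the libraries bears on these counts in H460. With raw library size in place of TMM the median of all genes moved to −0.32 on the log2 scale, and the calls over all genes were 155 higher and 4215 lower, against 360 higher and 496 lower with TMM. Of the interferon-stimulated genes, 9 were then called lower and 0 higher: OAS1, OAS3, STAT2, IFITM2, IFITM3, CMPK2, PARP9, IFI6 and IFI44. The short-gene share was 50.5% to 55.6% in H460 siNGFR libraries and 43.1% to 48.2% in H460 siCont libraries. Its part in the result was not tested beyond the fit without those genes, in which OAS3, STAT2 and IFI44 were lower and the IRF9 row was higher. Of all 17896 genes tested in that fit, 560 were higher and 607 lower.

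In H1299, 26 of the 43 genes had enough counts to test for the response to siNGFR, and none passed in edgeR or DESeq2. Over all 18925 genes tested, 0.0106% passed as higher and 0.0106% as lower. At an unadjusted p under 0.05, 6 of the 26 were higher and 0 lower, against 8.46% and 9.53% of all genes. Libraries did not overlap for 5 higher and 0 lower genes, against 10.7% and 10.1% of all genes. The median log2 change was 0.23 over the 26 genes and 0.00 over all genes tested.

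The H1299 values turned on siNGFR replicate 3. IFI35, an interferon-induced leucine zipper protein, had 12.3, 15.5 and 8.71 CPM in siNGFR libraries, against 7.59, 5.40 and 8.02 CPM in siCont libraries (log2 fold change 0.78, SE 0.23, adjusted p = 0.261). EIF2AK2, the kinase PKR that halts translation on double-stranded RNA, had 19.5, 21.0 and 11.5 CPM in siNGFR libraries and 10.7, 14.5 and 10.4 CPM in siCont libraries (log2 fold change 0.53, SE 0.24, adjusted p = 0.278). HERC6 had 4.38, 4.75 and 2.84 CPM in siNGFR libraries, against 2.72, 2.21 and 2.31 CPM in siCont libraries (log2 fold change 0.71, SE 0.24, adjusted p = 0.261). IFI35 and HERC6 did not overlap between groups, while the third EIF2AK2 value in siNGFR lay within the siCont range.

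Without that library, 8 of the 26 genes passed as higher and 1 as lower, where 11.3% and 16.6% of all genes passed. The 8 were DDX58, EIF2AK2, DDX60, IRF1, IFIT3, HERC6, SAMD9 and IFI35, with log2 fold changes between 0.66 for IFIT3 and 0.97 for IFI35, and in each of the 8 replicate 3 was the lowest of the siNGFR libraries. The gene that was lower was ISG15 (log2 fold change −0.59, SE 0.18, adjusted p = 0.0325). ISG15 had 8.99, 8.14 and 12.2 CPM in siNGFR libraries and 13.9, 15.2 and 9.41 CPM in siCont libraries, so that replicate 3 was the highest of its group. Leaving out any other H1299 library kept both counts at 0.

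**Figure D3:**
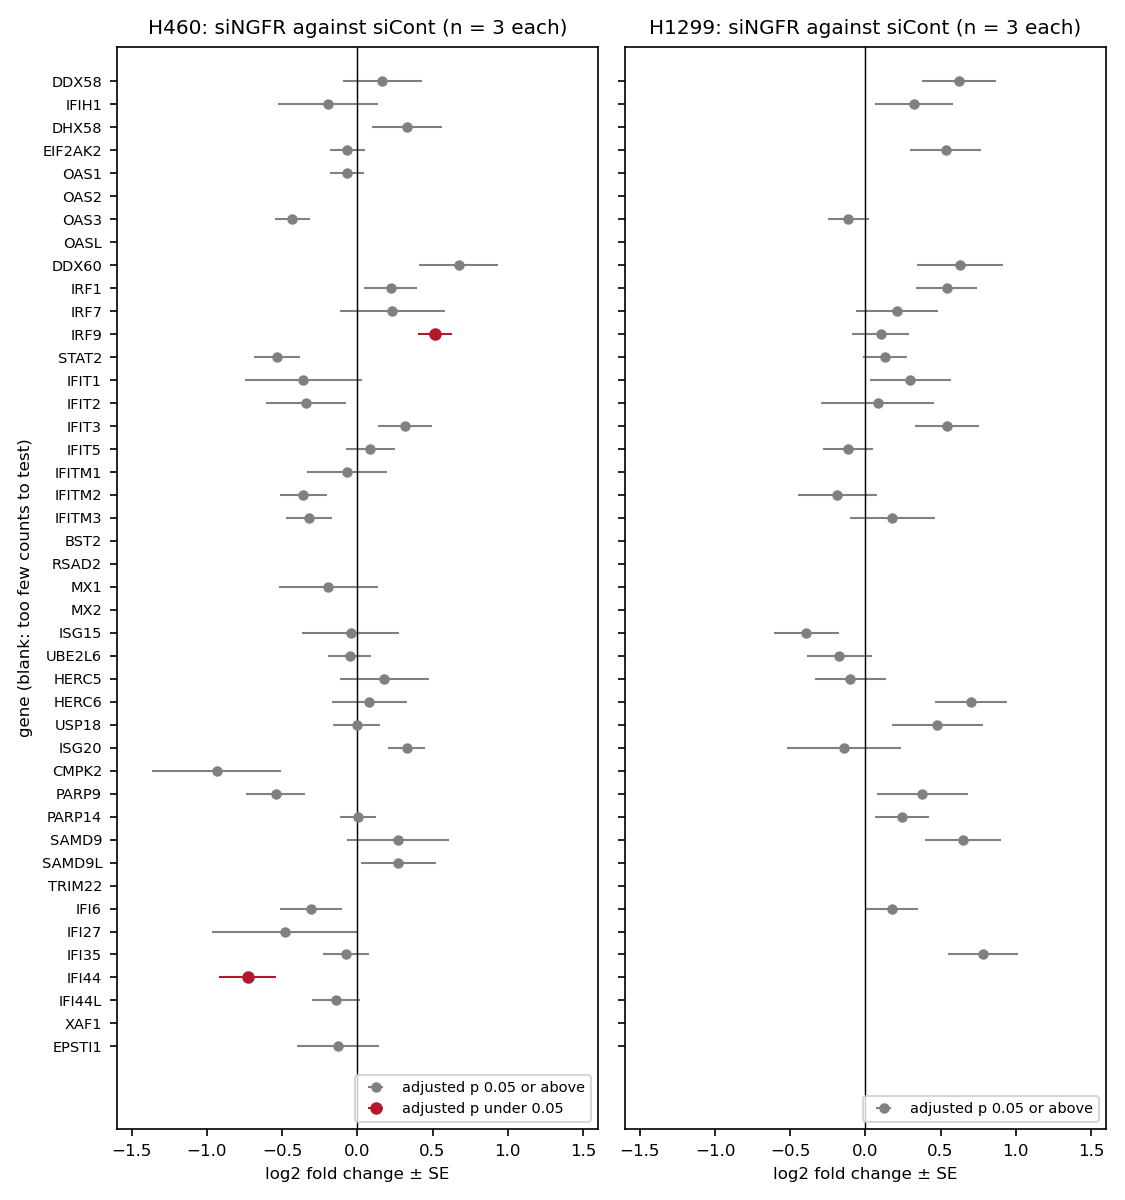
Log2 fold change of each gene with its standard error in siNGFR against siCont, in H460 (left) and in H1299 (right), from 3 libraries a group. The IRF9 row at 0.52 and IFI44 at −0.73 in H460 are the values past the test, and no gene passed in H1299.

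The responses of the lines were compared directly, as the log2 change in H460 minus that in H1299 over all 12 libraries. None of 36 genes passed in edgeR or DESeq2, against 0.158% higher and 0.269% lower of all 21583 genes tested. At an unadjusted p under 0.05 there were 0 higher and 5 lower, where all genes gave 8.53% and 8.45%. STAT2 had a difference of −0.69 (SE 0.21, 95% interval −1.09 to −0.28, adjusted p = 0.135), IFI35 of −0.88 (SE 0.30, adjusted p = 0.175) and PARP9 of −0.94 (SE 0.36, adjusted p = 0.212). STAT2 in H1299 had 13.9, 11.8 and 11.1 CPM in siNGFR libraries and 12.5, 9.88 and 11 CPM in siCont libraries, which overlapped.

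Without H1299 siNGFR replicate 3, 5 genes passed as lower in the H460 response and 0 as higher, where 8.66% and 9.31% of all genes did. They were EIF2AK2 at −0.93 (adjusted p = 0.00281), STAT2 at −0.84 (adjusted p = 0.0113), PARP9 at −1.24 (adjusted p = 0.0117), IFI35 at −1.14 (adjusted p = 0.005) and IFI44. The IFI44 value rests on 0 counts in H1299 siCont and 5 in H1299 siNGFR, and its size is not given because it depends on the prior count of the fit. With library size in place of TMM, 7 were called lower and 0 higher, while the calls over all genes were 157 higher and 2885 lower, against 34 and 58 with TMM, and the median of all genes was −0.50.

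**Figure D4:**
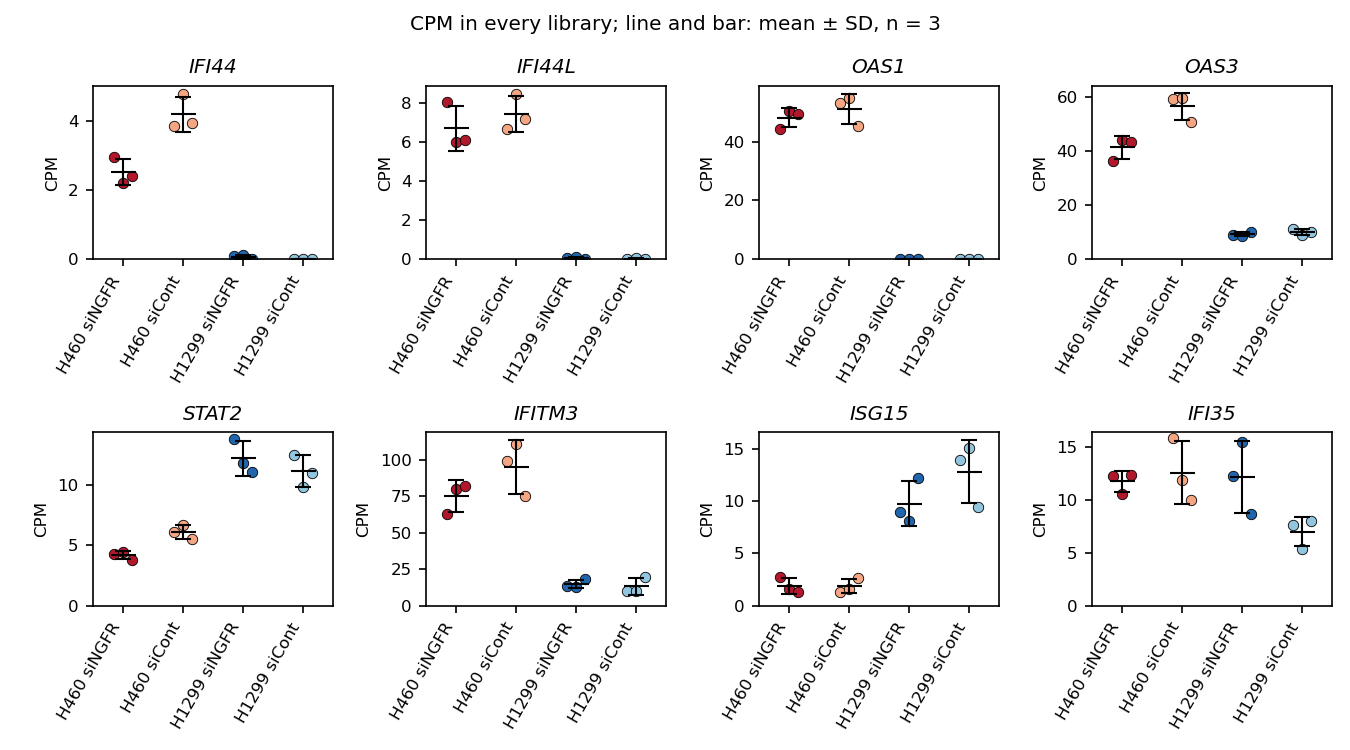
CPM of 8 genes in every library, with the mean and SD of the 3 libraries of each group. The H460 siNGFR points of IFI44, OAS3 and STAT2 lie below the H460 siCont points, and the H1299 points of IFI44, IFI44L and OAS1 lie at or near 0.

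Differences between the lines were much larger than those after knockdown. Under siCont, 35 of the 43 genes could be tested, of which 22 (62.9%) were higher in H460 and 8 (22.9%) lower, against 31.9% and 31.3% of all 20105 genes tested. Under siNGFR, in libraries that the first comparison did not use, 34 could be tested, of which 16 (47.1%) were higher in H460 and 9 (26.5%) lower, against 27.5% and 28.6% of all genes. Without H1299 siNGFR replicate 3 these were 16 higher and 12 lower of 35, against 32.7% and 31.8% of all genes, and EIF2AK2, DDX60 and PARP9 were then among the lower genes. Of the 34 genes tested in both, 16 were higher in H460 both times, 8 were lower both times and 0 changed direction between calls, but without that replicate EIF2AK2 was called higher under siCont and lower under siNGFR. Of the genes called under siCont, 82.8% of the 29 tested in both were called the same way under siNGFR, and 73.4% of all such genes. Several of them, among them OAS1, DHX58, MX1, IFI44, IFI44L and EPSTI1, entered both tests through their H460 counts. These could be called only as higher, so their agreement in direction between the siRNAs was fixed by the filter.

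A gene at or near 0 in H1299 enters these tests through its H460 counts alone. No H1299 library had more than 10 counts for 14 of the 43 genes, and 5 of those 14 were as low in H460. When a gene had to have at least 10 counts in every library, 13 of 26 were higher and 8 lower in H460 under siCont, against 30.7% and 30.7% of all genes. Under siNGFR the counts by that filter were 7 higher and 9 lower of 25, against 26.1% and 27.4% of all genes, so that higher calls no longer outnumbered lower ones. With raw library size the siCont comparison gave 24 higher and 7 lower, and its calls over all genes shifted to 8056 higher and 4501 lower, against 6417 and 6294 with TMM.

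**Figure D5:**
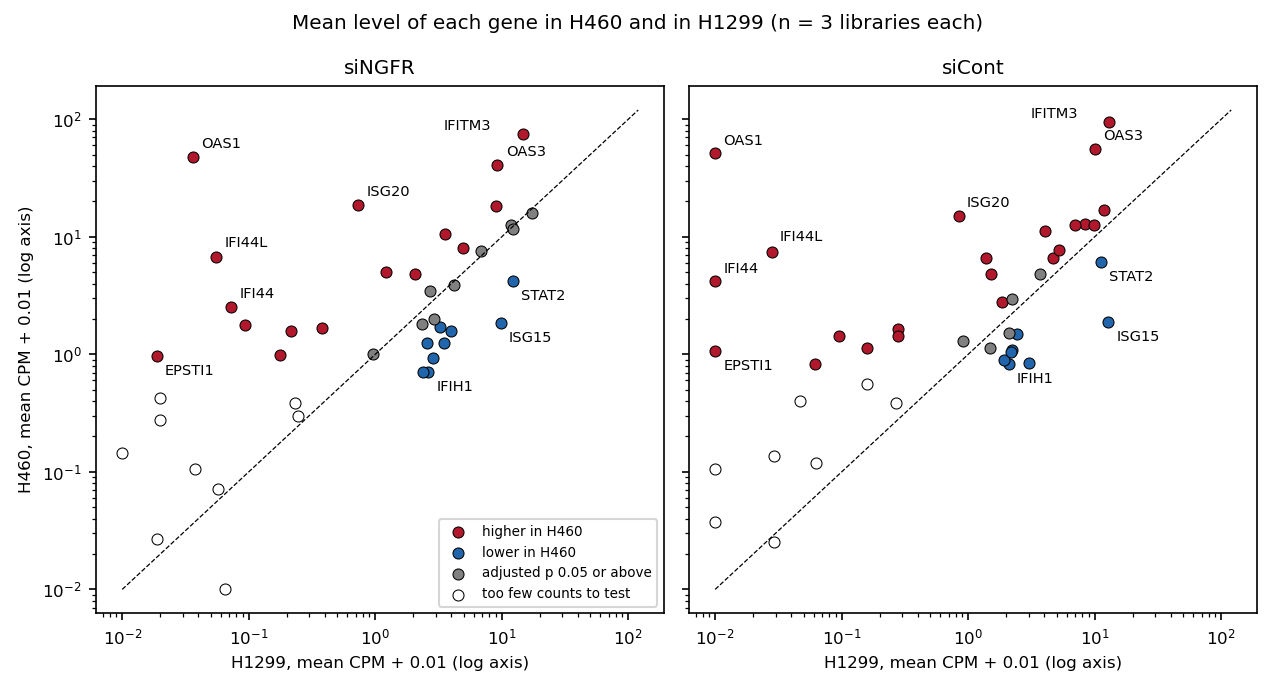
Mean CPM of each gene in H460 (vertical axis) against H1299 (horizontal axis), both with 0.01 added and on log axes, under siNGFR (left) and siCont (right). Each point is 1 gene and the mean of 3 libraries, and the dashed line marks equal levels. OAS1 lies farthest above the line in both panels, and ISG15 lies below it.

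The sensors split by line. OAS1, chr12:112906777-112933222, had 44.4, 50.6 and 49.4 CPM in H460 siNGFR libraries, against 0.0786, 0 and 0 CPM in H1299 siNGFR libraries. In siCont libraries OAS1 had 53.3, 54.8 and 45.4 CPM in H460 and 0 counts in all 3 H1299 libraries. These were 4042 counts against 0, which puts OAS1 at least 1002-fold higher in H460 siCont than a floor of 3 counts over the H1299 group. Under siNGFR the counts were 3245 against 3, a ratio of 1455 with an exact 95% counting interval of 497 to 7057. Such floors and intervals cover counting error only.

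OAS3, chr12:112938352-112973249, the next gene of the cluster and an activator of RNase L through the same messenger, was expressed in both lines. OAS3 had 36.2, 44.1 and 43.3 CPM in H460 siNGFR libraries, against 8.96, 8.63 and 10.1 CPM in H1299 siNGFR libraries (log2 difference 2.11, SE 0.14). Under siCont it had 59.1, 59.3 and 50.7 CPM in H460, against 11, 8.85 and 9.99 CPM in H1299 (log2 difference 2.49, SE 0.12, adjusted p = 3.09e-10). OAS2, the last gene of the cluster, was near 0 in both lines, with 6 counts in H460 siNGFR, 30 in H460 siCont, 3 in H1299 siNGFR and 2 in H1299 siCont. OASL, a relative without the enzyme activity, had 16 to 29 counts per group and was not tested between lines. OAS1, OAS2 and OAS3 overlap an antisense transcript, AC004551.1, and how the counting used strand is not stated in the sources at hand, so that its reads cannot be told apart from theirs. The same limit holds for other genes that overlap a gene on the opposite strand. Among them are IFIT1, IFIT2 and IFIT3 with LIPA, PARP9 with DTX3L, and EIF2AK2 with GPATCH11.

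Of the cytoplasmic RNA helicases, DHX58, which encodes LGP2, a regulator of the other RNA sensors, was higher in H460, and IFIH1, which encodes MDA5, a sensor of long double-stranded RNA, was lower. DHX58 had 1.70, 1.71 and 1.86 CPM in H460 siNGFR libraries, against 0.105, 0.0546 and 0.0889 CPM in H1299 siNGFR libraries. Under siCont DHX58 had 1.48, 1.58 and 1.19 CPM in H460, against 0.0863, 0.0540 and 0.115 CPM in H1299. In counts these were 118 against 8 under siNGFR and 112 against 5 under siCont. DHX58 entered the tests through its H460 counts alone and could be called only as higher there, so its test values are left out. IFIH1 averaged 0.698 ± 0.0434 CPM in H460 and 2.60 ± 0.163 CPM in H1299 under siNGFR (SD, n = 3 each), a log2 difference of −1.93 (SE 0.25, adjusted p = 0.000112). Under siCont the IFIH1 difference was −1.35 (SE 0.33, adjusted p = 0.00226).

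DDX58, which encodes RIG-I, the sensor of RNA ends, was lower in H460 under siNGFR (log2 difference −0.99, SE 0.27, adjusted p = 0.00996). Under siCont the DDX58 difference of −0.47 (SE 0.26) did not pass. EIF2AK2 was higher in H460 under siCont (log2 difference 0.50, SE 0.14, adjusted p = 0.00715), with −0.17 (SE 0.21) under siNGFR. Without H1299 siNGFR replicate 3 it was lower in H460 under siNGFR (log2 difference −0.41, SE 0.12, adjusted p = 0.00978). DDX60 passed in neither comparison with all libraries, and without that replicate it was lower in H460 under siNGFR (log2 difference −0.64, SE 0.26, adjusted p = 0.0461). A gene past the test under one siRNA only is not shown to differ between the siRNAs, since the difference of the line differences is the difference of the responses, which none passed with all 12 libraries and EIF2AK2 passed without that replicate.

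The transcription factors also went both ways. STAT2 had 4.25, 4.47 and 3.80 CPM in H460 siNGFR libraries, against 13.9, 11.8 and 11.1 CPM in H1299 siNGFR libraries (log2 difference −1.61, SE 0.17, adjusted p = 2.32e-05). Under siCont the STAT2 difference was −0.88 (SE 0.14, adjusted p = 9.16e-05). IRF7 was lower in H460 with log2 differences of −1.10 (SE 0.33) under siNGFR and −1.07 (SE 0.31) under siCont. The IRF7 call under siNGFR was lost without H460 siNGFR replicate 4 or 5 or H1299 siNGFR replicate 1 (adjusted p up to 0.0724). IRF1 was higher in H460 under siCont (log2 difference 0.50, SE 0.15, adjusted p = 0.00938), with 0.11 (SE 0.24) under siNGFR. The readthrough row named IRF9 was higher in H460 under both siRNAs (0.96 under siNGFR and 0.61 under siCont), but the IRF9 gene row was not, at −0.11 (SE 0.26) under siNGFR and 0.23 (SE 0.25) under siCont.

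The 4 IFIT genes lie together on chromosome 10 between 89283694 and 89421001, and differed in the sign of the line difference. IFIT1 was lower in H460, with 0.800, 0.460 and 0.820 CPM in H460 siNGFR libraries, against 2.12, 2.73 and 2.25 CPM in H1299 siNGFR libraries (log2 difference −1.81, SE 0.30, adjusted p = 0.000565). The siCont libraries held 0.600, 0.704 and 1.33 CPM in H460, against 1.94, 1.30 and 2.48 CPM in H1299 (log2 difference −1.09, SE 0.35, adjusted p = 0.0134), and these overlapped. This siCont call was lost without H460 siCont replicate 4 or 5 or H1299 siCont replicate 3 (adjusted p up to 0.0622). IFIT5, the next gene, was higher in H460, at 0.68 (SE 0.18, adjusted p = 0.00909) under siNGFR and 0.53 (SE 0.16, adjusted p = 0.01) under siCont, where the call was lost without H1299 siCont replicate 2 (adjusted p = 0.0579), as was the call under siNGFR with raw library size (adjusted p = 0.0804). IFIT3 was higher in H460 under siCont (0.60, SE 0.21, adjusted p = 0.0248), with 0.31 (SE 0.21) under siNGFR. The IFIT3 call was lost in DESeq2 and without H460 siCont replicate 5 or 6 or H1299 siCont replicate 1 or 2 (adjusted p up to 0.0743). IFIT2 passed in neither, with 0.907 to 1.38 CPM in H460 and 0.693 to 1.34 CPM in H1299.

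In IFIT5 the H460 siNGFR libraries had 9.50, 7.06 and 7.73 CPM, against 4.22, 5.52 and 4.98 CPM in H1299 siNGFR libraries. The IFIT5 levels under siCont were 6.27, 8.20 and 8.46 CPM in H460, against 5.61, 4.75 and 5.43 CPM in H1299. IFIT3 had 3.55, 3.55 and 3.32 CPM in H460 siNGFR libraries, against 2.80, 3.11 and 2.25 CPM in H1299 siNGFR libraries. Neither gene overlapped between the lines under either siRNA.

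Of the IFITM genes, which encode small membrane proteins that hold back virus fusion, IFITM3 and IFITM2 were called higher in H460 under both siRNAs. IFITM3, chr11:319669-327537, had 62.5, 80.1 and 82.2 CPM in H460 siNGFR libraries, against 13.4, 12.8 and 18.0 CPM in H1299 siNGFR libraries (log2 difference 2.29, SE 0.18, adjusted p = 3.48e-06). In siCont libraries IFITM3 had 99.0, 111 and 74.7 CPM in H460, against 9.67, 9.71 and 19.8 CPM in H1299 (log2 difference 2.86, SE 0.24, adjusted p = 9.01e-08). The H1299 siCont replicate 3 held more IFITM3 than any H1299 siNGFR library.

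IFITM2 had 4.55, 5.35 and 5.18 CPM in H460 siNGFR libraries, against 1.21, 1.15 and 1.27 CPM in H1299 siNGFR libraries (log2 difference 2.00, SE 0.20). Under siCont IFITM2 had 6.69, 7.25 and 5.66 CPM in H460, against 1.38, 1.08 and 1.67 CPM in H1299 (log2 difference 2.24, SE 0.21, adjusted p = 3.4e-07). IFITM1 had 2.00, 1.63 and 1.08 CPM in H460 siNGFR libraries, against 0.183, 0.109 and 0.326 CPM in H1299 siNGFR libraries. Under siCont IFITM1 had 1.43, 1.90 and 1.6 CPM in H460, against 0.259, 0.324 and 0.231 CPM in H1299. IFITM1 had 20 counts in H1299 siNGFR and 16 in H1299 siCont, and entered both tests through its H460 counts. It could be called only as higher there, so its test values are left out. The 3 genes are close paralogs, and the annotated IFITM1 and IFITM2 rows share bases on the same strand, so that the split of reads among them is uncertain.

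MX1, the dynamin-like GTPase that traps viral nucleocapsids, was also higher in H460. MX1 had 1.20, 0.919 and 0.820 CPM in H460 siNGFR libraries, against 0.105, 0.273 and 0.119 CPM in H1299 siNGFR libraries. Under siCont it had 0.877, 1.62 and 0.853 CPM in H460, against 0.216, 0.0540 and 0.173 CPM in H1299. In counts these were 65 against 13 under siNGFR and 90 against 9 under siCont. MX1 too entered the tests through its H460 counts alone, so its test values are left out. MX2, its neighbour, which acts against retroviruses, had 3 to 9 counts per group. BST2, which tethers budding virions, had 0 to 8 counts per group, and RSAD2, which encodes viperin, had 9 in H460 siNGFR, 2 in H460 siCont and 0 in both H1299 groups.

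ISG15 and the enzymes around it did not share a direction. ISG15, chr1:1001138-1014540, had 2.70, 1.55 and 1.25 CPM in H460 siNGFR libraries, against 8.99, 8.14 and 12.2 CPM in H1299 siNGFR libraries (log2 difference −2.48, SE 0.28, adjusted p = 4.27e-05). Under siCont ISG15 had 1.34, 1.62 and 2.63 CPM in H460, against 13.9, 15.2 and 9.41 CPM in H1299 (log2 difference −2.77, SE 0.24, adjusted p = 1.27e-07). Every H1299 library lay above every H460 library.

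UBE2L6, the conjugating enzyme of ISG15, went the other way. It had 10.4, 10.6 and 11 CPM in H460 siNGFR libraries, against 3.85, 2.57 and 4.33 CPM in H1299 siNGFR libraries (log2 difference 1.5, SE 0.20). Under siCont it had 13.8, 10.3 and 9.49 CPM in H460, against 4.23, 4.16 and 3.81 CPM in H1299 (log2 difference 1.44, SE 0.17, adjusted p = 3.17e-06). USP18, the protease that removes ISG15 and also damps the type I receptor, was likewise higher in H460, at 1.13 (SE 0.27) under siNGFR and 1.69 (SE 0.20) under siCont. HERC5, the main ligase for ISG15 in human cells, was lower in H460, at −1.66 (SE 0.25) under siNGFR and −1.88 (SE 0.28) under siCont. HERC6, a relative of HERC5 14.0 kb away on chromosome 4, was lower too, at −1.40 (SE 0.28) under siNGFR and −0.71 (SE 0.23) under siCont, where the call was lost with raw library size and without H1299 siCont replicate 1 (adjusted p up to 0.149).

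ISG20, an exonuclease that degrades viral RNA, had one of the wider gaps between the lines among genes expressed in both. ISG20, chr15:88636153-88656483, had 20.4, 18.0 and 17.9 CPM in H460 siNGFR libraries, against 1.02, 0.382 and 0.770 CPM in H1299 siNGFR libraries (log2 difference 4.54, SE 0.26, adjusted p = 3.14e-07). Under siCont it had 17.5, 14.5 and 13.5 CPM in H460, against 0.820, 0.809 and 0.866 CPM in H1299 (log2 difference 4.17, SE 0.19, adjusted p = 1e-10). CMPK2, a mitochondrial nucleotide kinase whose gene overlaps RSAD2 on the opposite strand, had 29 counts in H460 siNGFR and 1 in H1299 siNGFR. Under siCont CMPK2 had 67 counts in H460 and 3 in H1299, a ratio of 16.6 with an exact 95% counting interval of 5.44 to 82.5.

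SAMD9 and SAMD9L, paralogs 12 kb apart on chromosome 7 that restrain poxviruses, had mean levels that differed between the lines in opposite directions. SAMD9 was lower in H460, at −1.53 (SE 0.35, adjusted p = 0.00392) under siNGFR and −1.09 (SE 0.26, adjusted p = 0.00231) under siCont. SAMD9L averaged 1.68 CPM in H460 and 0.371 CPM in H1299 under siNGFR, and 1.41 and 0.267 CPM under siCont. It had 31 counts in H1299 siNGFR and 16 in H1299 siCont, and entered both tests through its H460 counts. SAMD9L could be called only as higher, so its test values are left out. PARP14, an ADP-ribosyltransferase, had a log2 difference of 0.34 (SE 0.14, adjusted p = 0.0471) under siCont, which passed in 5 of 12 alternatives, and of 0.04 (SE 0.17) under siNGFR. PARP9 passed in neither comparison with all libraries, and without H1299 siNGFR replicate 3 it was lower in H460 under siNGFR (log2 difference −0.83, SE 0.22, adjusted p = 0.00483). TRIM22, a ubiquitin ligase active against viruses, had 18 counts in H460 siNGFR, 10 in H460 siCont and 1 in each H1299 group.

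Like OAS1, the genes IFI44, IFI44L and EPSTI1 were at or near 0 in H1299. IFI44 had 168 counts in H460 siNGFR and 5 in H1299 siNGFR. Under siCont IFI44 had 336 counts in H460 and 0 in H1299, at least 83.3-fold higher than the floor of 3 counts. IFI44L, chr1:78619922-78646145, had 445 counts in H460 siNGFR and 3 in H1299 siNGFR, a ratio of 199 (exact 95% counting interval 67.8 to 971). Under siCont the IFI44L counts were 595 in H460 and 1 in H1299, a ratio of 442 (79.1 to 17502).

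EPSTI1, first described in breast cancer cells beside stroma, had 64 counts in H460 siNGFR and 1 in H1299 siNGFR, a ratio of 86.1 (exact 95% counting interval 14.9 to 3452). Under siCont EPSTI1 had 84 counts in H460 and 0 in H1299, at least 20.8-fold higher than the floor.

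IFI35 and IFI6 differed less. IFI35 was higher in H460 under siCont, with 15.9, 11.9 and 10.0 CPM in H460, against 7.59, 5.40 and 8.02 CPM in H1299 (log2 difference 0.83, SE 0.19, adjusted p = 0.00127). Under siNGFR IFI35 had 12.3, 10.6 and 12.3 CPM in H460, against 12.3, 15.5 and 8.71 CPM in H1299, which overlapped (log2 difference −0.10, SE 0.21). IFI6, a mitochondrial and endoplasmic reticulum protein, had 3.90, 3.76 and 3.89 CPM in H460 siNGFR libraries, against 3.67, 4.53 and 4.41 CPM in H1299 siNGFR libraries. Under siCont IFI6 had 3.60, 4.54 and 6.18 CPM in H460, against 3.75, 3.62 and 3.69 CPM in H1299, and its differences of −0.17 (SE 0.18) and 0.37 (SE 0.21) did not pass. IFI27, a mitochondrial protein, had 9 to 41 counts per group and was not tested between the lines, and XAF1, a partner of the apoptosis inhibitor XIAP, had 0 to 5 counts per group.

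The genes upstream were read from lists that are not among the 43. None of the 21 interferon genes had enough counts to test in any comparison, and their summed level was 0.109 to 0.504 CPM over the 12 libraries. IFNB1, IFNA8 and IFNK had 0 counts in all of them. No gene of the receptor, sensor and adaptor, other IRF, feedback inhibitor or further interferon-stimulated lists passed in the response of H460 or H1299 to siNGFR.

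Between the lines under siCont, 1 of 6 receptor genes was higher in H460 and 3 lower, and the counts of this list and of the lists that follow stand against 31.9% higher and 31.3% lower of all genes tested. IFNLR1, the specific chain of the type III receptor, averaged 4.69 ± 0.703 CPM in H460 and 0.761 ± 0.0139 CPM in H1299 (SD, n = 3 each), a log2 difference of 2.60 (SE 0.24). IFNGR2 and IFNAR2, chains of the type II and type I receptors, were lower in H460, at −1.06 (SE 0.12) and −0.89 (SE 0.16). Of the kinases bound to these receptors, JAK1 was higher in H460 (log2 difference 0.38, SE 0.12) and JAK2 lower (−1.21, SE 0.31).

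Of 12 tested sensors and adaptors 8 were higher in H460 and 1 lower. MYD88, the adaptor of most Toll-like receptors, had 602 counts in H460 and 7 in H1299. ADAR, which edits double-stranded RNA and keeps it from the sensors, was higher by 1.5 (SE 0.12), and MB21D1, which encodes the DNA sensor cGAS, had a difference of −2.11 (SE 0.18). Of 3 tested other IRF genes, IRF5 was higher (1.33, SE 0.31) and IRF3 lower (−0.97, SE 0.12), and IRF2 did not pass (0.28, SE 0.15). Of 6 tested feedback inhibitors 3 were higher and 2 lower, with SOCS3 at 1.86 (SE 0.11) and PTPN2 at −1.24 (SE 0.19). PTPN6, among the higher ones, had 281 counts in H460 siCont and 15 in H1299 siCont.

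Of 24 tested further interferon-stimulated genes 17 were higher in H460 and 5 lower under siCont, against the same 31.9% and 31.3% of all genes. LGALS3BP, a secreted galectin-binding protein, had a log2 difference of 5.51 (SE 0.18), and PSMB8, an immunoproteasome subunit, of 2.59 (SE 0.16). IFI16, a nuclear DNA sensor, had 6 counts in H1299 siCont, against a mean of 21.1 CPM in H460 siCont. Under siNGFR, 12 of 24 tested further genes were higher and 4 lower, and 6 of 12 sensors and adaptors higher and 1 lower. All genes gave 27.5% and 28.6% there. These lists were not read with at least 10 counts in every library. MYD88, PTPN6 and IFI16 entered through their H460 counts and could be called only as higher, so their test values are left out.

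Markers of other cell types were read beside these line differences. Epithelial markers were present in both lines, at 1014 to 1275 CPM summed in H460 siNGFR, 1009 to 1173 in H460 siCont, 502 to 555 in H1299 siNGFR and 435 to 482 in H1299 siCont. KRT8 and KRT18 made up most of these sums, KRT19 had 2 to 5 counts per group in H1299, and EPCAM and CDH1 had 0 to 11 counts per group in either line. Of the 6 fibroblast markers 3 could be tested under siCont and all 3 were higher in H460, with sums of 27.0 to 31.0 CPM in H460 siCont and 0.302 to 1.15 CPM in H1299 siCont. At that level in H1299 they entered the test through their H460 counts, so their shared direction was set by the filter. Of the 8 leukocyte markers 2 could be tested, CD14 higher and CD68 lower in H460, with sums of 16.3 to 22.3 and 9.39 to 15 CPM. CD14 too entered that test through its H460 counts and could be called only as higher. The 5 endothelial markers were too low to test, at 0.164 to 0.863 CPM summed in any library. In the H460 response, CD68 was lower in siNGFR (log2 fold change −0.82, SE 0.17) and COL3A1 higher (0.41, SE 0.11). The other 3 tested fibroblast markers had negative values and did not pass, at −1.18 (SE 0.49) for LUM, −0.48 (SE 0.26) for COL1A1 and −0.27 (SE 0.19) for PDGFRB. Leukocyte sums were 10.8 to 14.4 CPM in H460 siNGFR and 16.3 to 22.3 CPM in H460 siCont. Their part in the results was not tested.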

How the data were processed

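Ion Total RNA-Seq libraries came from ribosome-depleted RNA and were read on an Ion PI chip. STAR, Bowtie2 and hg38 stand in the submitters' processing notes, with no versions. The authors deposited raw read counts per gene for the 12 libraries in one table, and its counting program, strand setting and annotation are not stated in the sources at hand. Of the per-sample columns, 24 (RPKM values and repeated counts) were not used, nor were tables holding the authors' own EBSeq comparison (posterior probabilities and fold changes).

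Counts on the primary chromosomes were filtered with filterByExpr, scaled by TMM and tested with the edgeR 4.0.16 quasi-likelihood test in R 4.3.3, with Benjamini-Hochberg adjustment over all genes tested and a threshold of 0.05. Each adjusted p in the text comes from that fit unless an alternative is named with it, and each SE is the log2 fold change divided by the root of F. Each response and each line comparison was fitted on its 6 libraries, the difference of responses on all 12. DESeq2 1.42.0 was an alternative, beside other scalings, filters, a replicate block and leaving out each library. The tests were run first on simulated data.

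The 43 genes, the lists and the promoter patterns were chosen with earlier results of these data known. All 43 genes are accounted for. Values per library, or group counts or ranges in their place, are given for genes past the test in a response or in the difference of responses. They are also given for the 10 with the smallest p between the lines under siCont and at least 1 CPM in one line. The 5 with the highest level per length in either line and the gene families are treated in the same way. The row named IRF9 is given per library in H460 only. From each further list the genes past the test in a response and the 3 with the smallest p between the lines are named. Other genes given per library, RNF31 and CD14 were chosen after their values were seen. H460 columns could be tied to a group but not to a single sample. Results for some genes are not reported here. Depth limits genes under 10 counts per library. P-values measure the spread between libraries that the labels call biological replicates. Gene positions are those of GENCODE 29 on GRCh38, and promoters are from RefSeq on GRCh38.p14.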

Additional observations from a re-analysis of the deposited data

How the results depend on the processing

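Calls among the interferon-stimulated genes in the H460 response were 1 higher and 1 lower. Raw library size gave 0 higher and 9 lower, leaving out genes under 400 bases of exon gave 3 lower, no filter on low counts gave 2 lower, and reading IRF9 from its own gene row gave 0 higher. Over all genes, raw library size gave 155 higher and 4215 lower of 19837, and the fit without short genes 560 and 607 of 17896. The fit with no filter gave 698 and 784 of 43365. A single fit of all 12 libraries gave 0 higher and 0 lower, as did the replicate block. Of all 21583 genes in the single fit, 195 were higher and 266 lower. The replicate numbers share only a number: the correlations of same-numbered deviations were −0.056, 0.127 and −0.068 in H460 and 0.423, −0.301 and 0.0999 in H1299. Under the block the calls over all genes were 261 higher and 299 lower in H460, against 360 and 496 without it, and 0 and 0 in H1299, against 2 and 2. Leaving out 1 library gave 0 to 1 higher and 0 to 1 lower in H460, 0 to 8 higher and 0 to 1 lower in H1299, and 0 to 5 lower in the difference of responses. No filter gave 2 higher in H1299 and 3 lower in the difference, and library size gave 7 lower in the difference. Over all genes, no filter gave 574 higher of 42733 in H1299 and 719 lower of 47803 in the difference. Library size gave 2885 lower of 21583 in the difference. Between the lines, asking for at least 10 counts in every library gave 13 higher and 8 lower under siCont, against 22 and 8, and 7 higher and 9 lower under siNGFR, against 16 and 9, where the excess of higher calls was gone. No paired analysis was possible because the H460 and H1299 columns share no replicate number, for the comparisons between the lines. No called interferon-stimulated gene changed its sign, in the comparison that called it, under any alternative run there, and genes without a call were not followed in this way. Over all genes in H1299, DESeq2 called 75 higher and 88 lower and no filter 574 and 1330, against 2 and 2. Library size moved the median of all genes by 0.18 in the H1299 response and gave no call there.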
